A study of Brassica napus with 355 samples.

Results

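Chromosomes A02 and C2 of Brassica napus are homoeologs, one from each parental subgenome, and are described here through the RNA counts of their genes. The genes were taken by identifier: 4578 that begin with BraA02g (B. rapa reference, BnA subgenome) and 5843 that begin with Bo2g (B. oleracea reference, BnC subgenome), ordered by the number in the identifier. Together they are 10421 of the 106126 identifiers counted. A mean of at least 1 CPM (counts scaled to a common library size) over all libraries was reached by 2077 A02 and 2240 C2 genes, while 438 A02 and 726 C2 genes had no count in any library. A02 genes took 4.14% of all counts on average (2.96% to 6.18% per library) and C2 genes 3.99% (1.74% to 5.79%). The RefSeq gene table used here holds 0 of the 10421 identifiers, so no gene names are given and the leaf label could not be checked against markers.

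B. napus is an allopolyploid that joins the chromosomes of B. rapa and B. oleracea in a single nucleus. A gene on an A chromosome therefore usually has a counterpart, its homoeolog, in the same order on a C chromosome, and A02 and C2 are collinear over much of their length. Homoeologous chromosomes sometimes pair and recombine in B. napus, so that a stretch of a chromosome can be replaced by the matching stretch of its homoeolog, and such exchanges are known to differ between lines. The expression of homoeologs can also diverge without any change in the DNA. Only RNA was measured here, so the number of copies of a gene and the RNA made per copy cannot be told apart.

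The plants were 16 accessions: Ab (Aburamasari), Al (Alaska_BnASSYST_004), Av (Aviso), Br (Bristol_BnASSYST-031), Ca (Campari_BnASSYST-075), Da (Darmor), DH12 (DH12075), DH20 (DH2075), Gr (Gruener Schnittrohl_BnASSYST-219), Mu (Musette_BnASSYST-056), Ne (NK_Nemax_BnASSYST-084), Se (Sensaton_NZ_BnASSYST-414), St (Stellar DH JZ111), Qu (Quantum NE011), Yu (Yudal_BnASSYST-241) and Ze (Zephir_BnASSYST-068). Each was grown well watered (WW, pots kept at 100% of capacity) or water limited (WL, dried down to 20% of capacity after a first week of full watering), and after a week at that level the amounts were raised by the same share in both treatments. Fields of the labels differ on temperature and day length, which are therefore not given. Tissue from the tip of the youngest leaf of single plants was taken at ZT1, ZT7, ZT13 and ZT19, where ZT is the time in hours since dawn. A combination of accession, treatment and ZT is called a group, and 101 groups hold libraries of 3 plants, 24 of 2 and 3 of 1. An accession is a single line, so its plants measure the spread between plants of that line. In leaf tissue, fewer cells of a type and less RNA per cell cannot be told apart.

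Totals ran from 3216762 to 35177558 counts per library (median 18332000), and the 95% Wilson interval of a library's A02 share of A02 plus C2 counts was at most 0.347 percentage points wide, for counting error only. Labels were checked with 2752 genes outside A02 and C2 that are near 0 in some accessions and expressed in others: all but 2 libraries were most like their own accession, with a correlation of at least 0.642. The library labelled Al WL ZT19 replicate 3 was most like DH12 (r = 0.919, against -0.181 with Al), and the library labelled DH12 WW ZT19 replicate 3 was most like Al (r = 0.884, against -0.196 with DH12). Both were kept under their labels, and results that rest on them are given with and without them.

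The order of the genes on the 2 chromosomes was close to collinear in these data. Pairing each A02 gene with the C gene whose level followed it best, in both directions, gave 664 pairs with a correlation of 0.7 or more, of which 618 (93.1%) lay on C2. Of those, 602 were in rising order along both chromosomes (Spearman rho of the ranks 0.986, over pairs, which are not replicates). These pairs placed 92 windows of 50 A02 genes on the matching 21 to 111 genes of C2, numbered from 1 at the lowest identifiers to 92 at the highest. The measure used throughout is the balance, log2 of A02 counts over C2 counts of a window. It sets different genes of unequal length side by side, so its level is not a ratio of copies, and a window is compared with the same window in other accessions. Over the 16 accessions, the median balance of a window was within 1 log2 unit of 0 in 78 of 92 windows, and the median over windows was -0.325.

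The share of A02 in the A02 plus C2 counts separated DH20 from the rest. It averaged 70.2% ± 2.96 in DH20 (SD, n = 23 libraries), with 63.8% lowest, 69.5% median and 77.4% highest. Qu followed with 60.9% ± 0.698 (n = 23, 59.4% to 62.1%), then Ab with 57.9% ± 2.55 (n = 22, 55.3% to 68.8%) and Yu with 54.04% ± 0.702 (n = 23, 51.9% to 55.1%). DH12 at 50.7% ± 1.66 (n = 23) and Ca at 50.4% ± 1.86 (n = 22) overlapped each other, and the means of Ne, Ze, Se, Gr, Da, Mu, Al, Br and Av lay between 46.3% and 48.9%. St was lowest at 43.1% ± 0.670 (n = 19, 41.7% to 45.0%). Every library of DH20 lay above every library of Qu, and all but 1 library of Ab lay below every library of Qu. On both other pairs measured, A01 with C1 and A03 with C3, the A share of DH20 was not above that of the other accessions: its A03 share of A03 plus C3 was 39.2%, within the 38.8% to 43.3% of the accessions, and its A01 share of A01 plus C1, 30.8%, was the lowest of the 16.

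**Figure D1:**
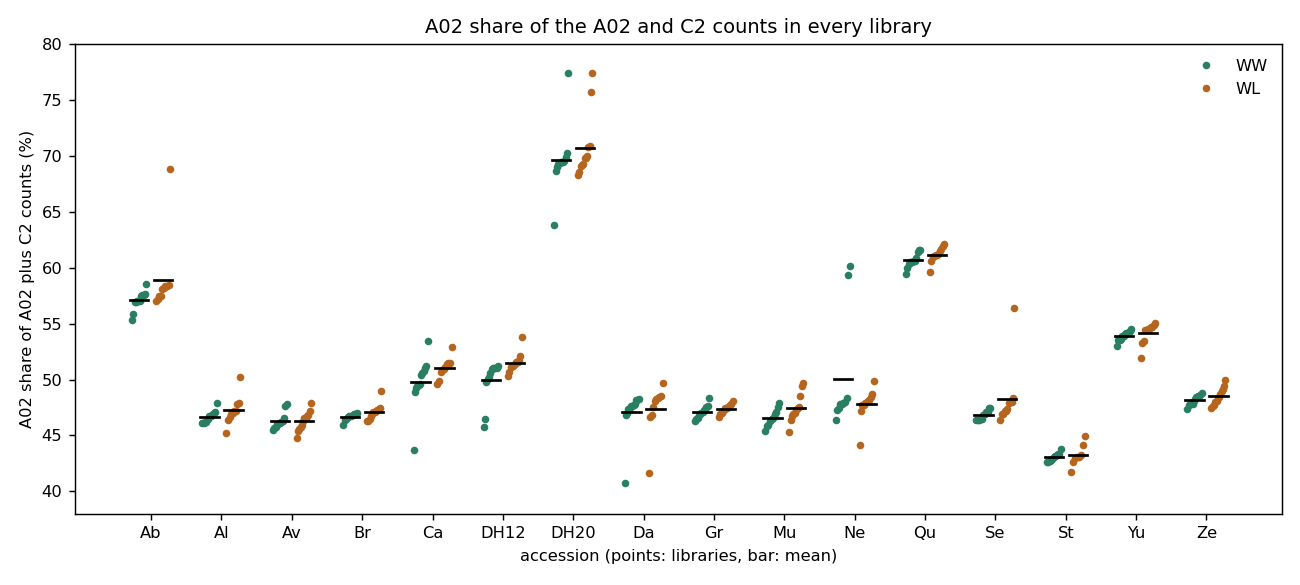
A02 share of A02 plus C2 counts in percent (y axis, starting at 38%), 1 point per library, by accession (x axis) and treatment, with the mean of each group as a bar. DH20 libraries sit between 63.8% and 77.4%, Qu between 59.4% and 62.1%, St between 41.7% and 45.0%, and WW and WL points of an accession overlap.

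Along the chromosomes, these differences came in blocks. For each accession and window, the balance was compared with the mean of the other 15 accessions and called when the difference exceeded 1 log2 unit with an adjusted p no higher than 0.01 (limma's treat, adjusted over all windows of A01/C1, A02/C2 and A03/C3 within the accession). Of 1472 tests on A02/C2, 166 were called (11.3%), 129 with more A02 and 37 with less; over the 3 chromosome pairs 9.05% were called. The comparisons share samples, since each accession is also among the 15 of the others. DH20 had 51 of its 92 windows called (55.4%), Qu 25, Ab 17, St 13, Yu 12, DH12 11, Ze 8, Ca 7, Se 7 and Gr 5, and Al, Av, Br, Da, Mu and Ne had 1 to 3. No accession was called in 25 windows, a single accession in 28, and 2 or more in 39. Runs of 2 or more adjacent windows called in the same direction, named segments here, numbered 19 and held 138 of the 166 calls, 13 with more A02 and 6 with less. The largest adjusted p of any window within a segment was 0.00152 (limma).

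**Figure D2:**
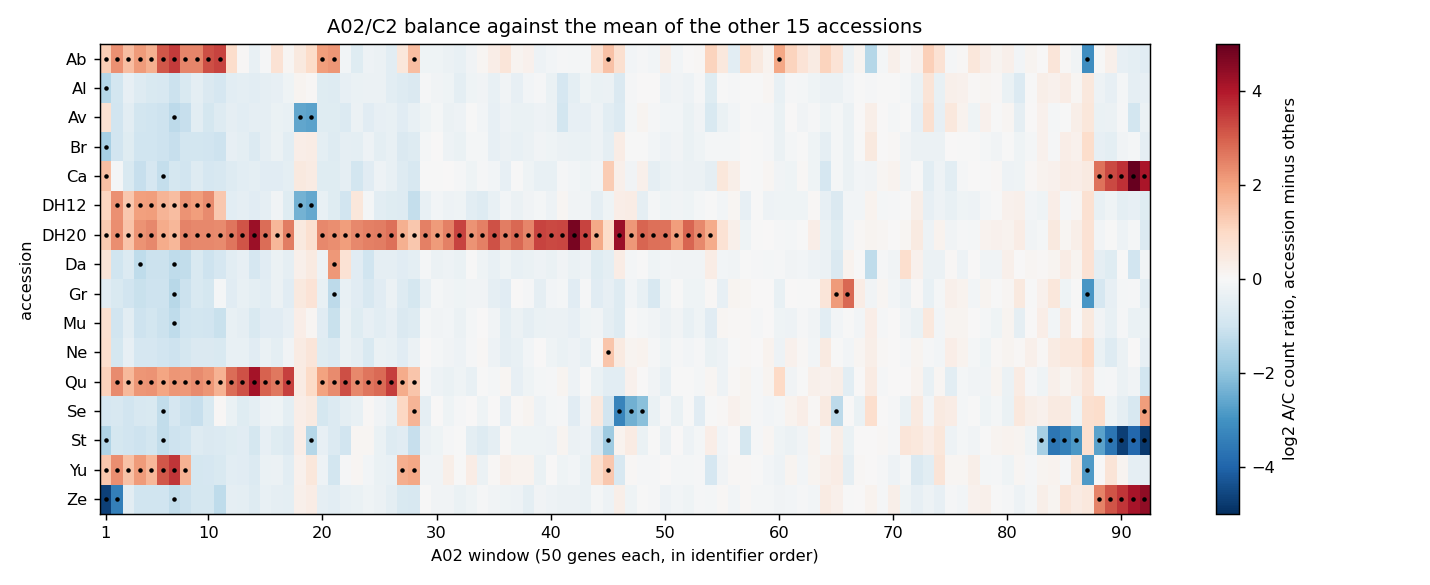
A02/C2 balance of each accession (y axis) in each of the 92 windows (x axis, window number) as the log2 difference from the mean of the other 15 accessions, in color, with a dot where limma's treat called it. DH20 shows blocks of more A02 in windows 1 to 17, 20 to 44 and 46 to 54, Qu in 2 to 17 and 20 to 28, and St shows less A02 in windows 83 to 86 and 88 to 92.

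The first 17 windows, from BraA02g01010R to BraA02g09500R and from Bo2g001000 to Bo2g018560, held overlapping segments of more A02 in 5 accessions, with different ends. Segments ran over windows 1 to 17 in DH20, 2 to 17 in Qu, 1 to 11 in Ab, 2 to 10 in DH12 and 1 to 8 in Yu. In DH20 the balance of windows 1 to 17 summed was 2.23 in the lowest library, 2.67 in the median and 2.97 in the highest (2.66 ± 0.138, n = 23), and the 218 libraries of the 10 accessions with no such call ranged from -1.03 to 1.13. Qu was at 2.61, 2.76 and 2.93 over windows 2 to 17 (2.76 ± 0.0921, n = 23). Neither accession overlapped the accessions without a call. Here and below, segments and accessions without a call were set by calls on the same libraries. Such gaps therefore describe the segments without testing them. The median difference of a window from the mean of the other 15 was 2.39 in DH20 (1.30 to 4.29 over its 17 windows) and 2.29 in Qu (1.61 to 4.14 over 16).

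Over windows 1 to 11, Ab libraries had balances of 2.68 at the lowest, 3.04 in the median and 3.50 at the highest (3.04 ± 0.195, n = 22). In the accessions without a call there, all libraries were at or below 0.0869 except those that match another accession or stand apart from their own (described below), which reached 2.52. Yu was at 2.43, 3.01 and 3.14 over windows 1 to 8 (2.94 ± 0.181, n = 23), and its windows 9 and 10 were at -0.337 and -0.961, beside 2.79 and 2.82 in Ab. DH12 was at -0.504, 2.58 and 2.75 over windows 2 to 10 (2.45 ± 0.649, n = 23). Its lowest value was the library that matches Al. Without that library DH12 was at 2.58 ± 0.0908 (n = 22, 2.40 to 2.75), and the library labelled Al that matches DH12 was at 2.56 there. The median window difference was 2.43 in Ab (1.25 to 3.48), 1.93 in Yu (1.36 to 3.59) and 2.09 in DH12, which became 2.20 without the 2 libraries. Without them windows 1 and 11 of DH12 were called as well (1.17 and 1.41), so that its calls of more A02 covered windows 1 to 11, as did those of Ab there.

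Ze had the opposite difference at the start of the chromosomes. In windows 1 and 2 its balance was -3.22 in the lowest, -2.45 in the median and -1.98 in the highest library (-2.44 ± 0.289, n = 24), below all 267 libraries of the accessions without such a call, which started at -0.0772. C2 held 84.3% ± 2.53 of the counts of these windows in Ze and 31.7% in the other accessions. Window 1 varied among the other accessions as well: 10 of 16 were at 1.5 or more, Gr was at 1.12, and Se, Al, St and Br were between 0.0878 and 0.845. The call for less A02 in Al (-1.43, mean balance 0.257) has a highest library of 3.05, the library that matches DH12.

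Windows 18 and 19 were the reverse case, in which most accessions had far more A02 counts. In window 18, 14 accessions had balances of 2.84 to 3.15, and Av and DH12 were at 0.223 and 0.435. In window 19 the same 2 accessions were at -0.620 and -0.510, St was at 0.599, and 13 accessions were at 1.97 to 2.80. Over both windows Av was at -0.366, -0.118 and 0.123 (-0.135 ± 0.135, n = 23). DH12 was at -0.587, -0.0594 and 1.86, and without the library that matches Al it was at -0.0930 ± 0.175 (n = 22, -0.587 to 0.151). The libraries of the 13 accessions without a call over both windows, those standing apart aside, ranged from 1.92 to 3.70. The difference from the mean of the others was -2.65 in Av and -2.48 in DH12 (-2.59 without the 2 libraries), and C2 held 52.3% of the counts in Av against 16.4% in the others. The DH12 segment was not called when windows were placed by relative position on C2 (-1.09).

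Windows 20 to 54 held the longest segment. In DH20, windows 20 to 44 (BraA02g10510R to BraA02g23000R, 1250 A02 and 1748 C2 genes) had balances of 2.15, 2.46 and 2.66 (2.42 ± 0.120, n = 23), and the 219 libraries of the 10 accessions without a call ranged from -0.698 to 0.477. Windows 46 to 54 of DH20 were at 2.51, 2.77 and 2.90 (2.75 ± 0.107), against -0.865 to 1.55 in the other 15 accessions. The largest difference of any window in DH20 was 4.73, in window 42, where its mean balance was 4.60 and the mean of the others -0.124. Qu was at 2.29, 2.46 and 2.85 in windows 20 to 28 (2.48 ± 0.123, n = 23), and Yu at 2.16, 2.73 and 3.67 in windows 27 and 28 (2.75 ± 0.395, n = 23). Windows 20 and 21 of Ab were at 1.67, 2.05 and 2.85 (2.12 ± 0.292, n = 22), a call that was lost with windows placed by relative position (0.626). Se had less A02 in windows 46 to 48, at -2.82, -2.37 and -0.691 (-2.22 ± 0.510, n = 22), below all 332 libraries of the other 15 accessions, which started at -0.518.

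The last windows separated St from Ca and Ze. Over windows 88 to 92 (BraA02g44510R to BraA02g46780R, Bo2g164100 to Bo2g168320), Ca was at 3.03, 3.43 and 3.80 (3.42 ± 0.176, n = 22) and Ze at 2.68, 3.31 and 3.53 (3.28 ± 0.199, n = 24). St was at -4.16, -3.99 and -1.97 (-3.80 ± 0.493, n = 19). Ca and Ze did not overlap the 13 accessions without their call, whose highest library was at 1.199, and St did not overlap the other 15, whose lowest was at -1.59. In windows 83 to 86 St was at -3.94, -2.97 and -1.98 (-2.89 ± 0.437), again below every library of the other accessions. The median window differences were 3.66 in Ca, 3.59 in Ze, -3.92 in St for windows 88 to 92 and -3.14 in St for windows 83 to 86. Gr had a short segment of more A02 in windows 65 and 66, at 2.36, 2.77 and 3.53 (2.81 ± 0.299, n = 22), above all 332 libraries of the others, which reached 2.25.

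Outside the segments, 28 windows were called alone, and 9 of these were within 0.5 of the median of the other 15 accessions (-0.347 to -0.172), all in windows 4, 6 and 7, where the 5 accessions with more A02 raise the mean of the others. The call in Mu, its only window, is among these: window 7 was -1.27 from the mean of the others and -0.206 from their median. Window 87 split the accessions without a middle: Ab, Gr and Yu had mean balances of -0.349, -0.186 and -0.0903, and the other 13 had 2.99 to 3.49. In window 21, Da joined Ab, DH20 and Qu, at 2.43 beside 2.49, 2.57 and 2.60, and the other 12 were at -0.0955 or below. In window 28, Ab, DH20, Qu, Se and Yu were at 3.50 to 4.03 and the others at 1.08 to 1.91. Window 45, between the DH20 segments, was at -0.340 in DH20, 0.0555 to 0.256 in Ab, Ca, Ne and Yu, -1.37 or below in the remaining accessions, and -2.91 in St. The call of Ne in window 45 (1.38) is its only one, and window 92 of Se was at 6.41, between the 8.24 and 8.58 of Ca and Ze and the 3.55 to 4.17 of 12 others. Br was called in window 1 only (-1.66).

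The largest window of the remaining accessions was window 7 in Ab (3.48) and Yu (3.59), window 91 in Ca (4.99), window 19 in Av (-2.69) and DH12 (-2.58), window 21 in Da (2.16), window 87 in Gr (-2.93), window 14 in Qu (4.14), window 46 in Se (-3.31), window 92 in St (-4.83) and window 1 in Ze (-4.66). These values are differences of balance from the mean of the other 15 accessions, on the log2 scale.

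Both sides of the balance moved in the segments, in opposite directions, while their sum stayed near that of the other accessions. In the 13 segments with more A02, A02 counts in CPM were 1.40 to 1.88 times those of the other accessions (median 1.65) and C2 counts 0.136 to 0.439 times (median 0.299). In the 6 segments with less A02, A02 was at 0.139 to 0.565 times and C2 at 1.72 to 2.95 times. The sum of both was 0.838 to 1.196 times that of the others in the first kind and 0.900 to 1.13 times in the second. In DH20 windows 20 to 44, A02 gave 18460 CPM against 10520, C2 gave 3451 against 10750, and the sum was 21910 against 21270. In St windows 88 to 92, A02 gave 314 CPM against 2262, C2 gave 4280 against 2217, and the sum was 4594 against 4478. These sums describe windows called on the same libraries and have no test.

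C2 counts did not reach 0 in the segments with more A02, nor A02 counts in those with less. C2 held 15.8% of the counts of windows 20 to 44 in DH20 (50.6% in the others), 10.9% of windows 1 to 11 in Ab (44.0%), 8.57% of windows 88 to 92 in Ca (54.2%) and 9.39% in Ze (54.1%). C2 held 92.9% of windows 88 to 92 in St (48.5% in the others). A read that aligned to both subgenomes added a fraction of a count to each, and the part of such reads in these remainders was not tested.

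**Figure D3:**
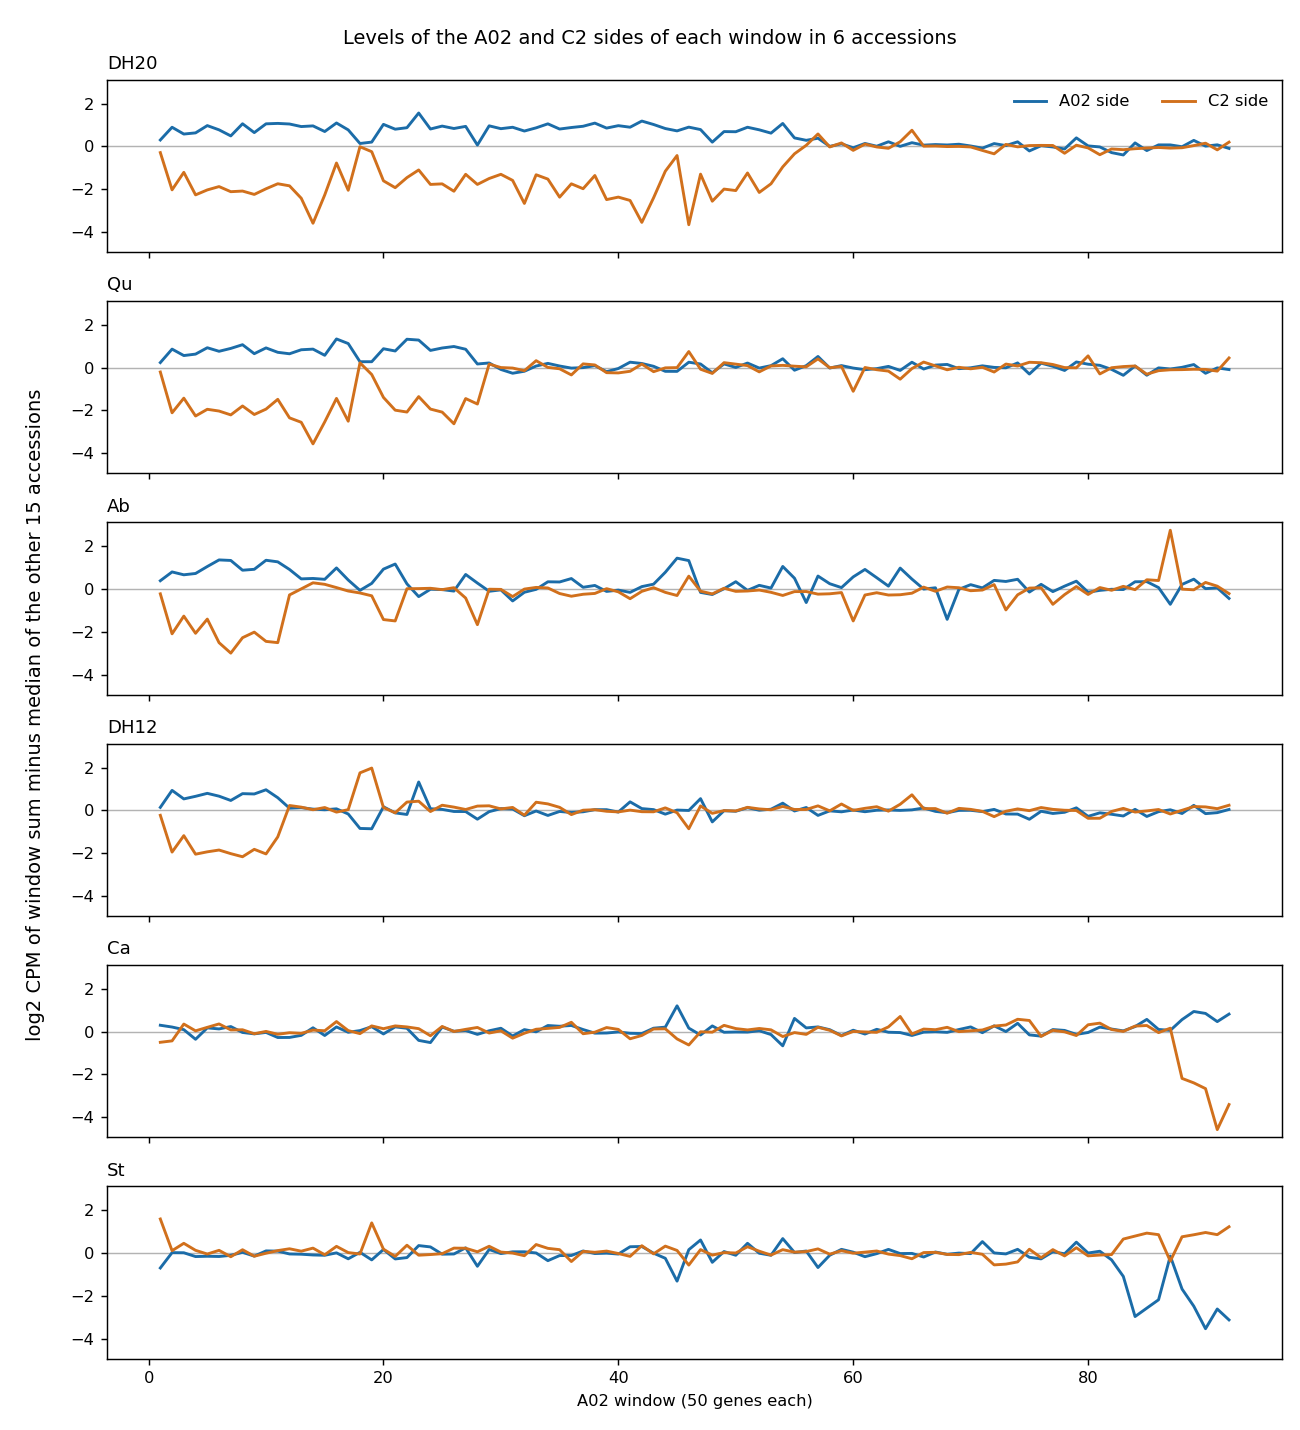
Log2 CPM of the A02 side and of the C2 side of each window (x axis, window number) minus the median of the other 15 accessions (y axis, log2), in DH20, Qu, Ab, DH12, Ca and St. Inside the segments the sides lie on opposite sides of 0, with the C2 side of DH20 at a median of -1.76 and its A02 side at 0.893 over windows 20 to 44.

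Tested on their own, the C2 levels gave more calls than the A02 levels. With windows of 50 genes on each chromosome and the same limit (limma's treat on log2 CPM, adjusted over the windows of 19 chromosomes within an accession), 22 of 1472 A02 tests and 137 C2 tests (117 windows in each of 16 accessions) were called, beside 1.69% over all chromosomes. C2 was lower in 58 windows of DH20, 25 of Qu, 12 of Ab, 9 of Yu, 8 of DH12, and 4 each of Ca and Ze. A02 was lower in 9 windows of St and in 2 each of Se and Ze. The limit of 1 log2 unit bears on the sides unequally. As sums over the 13 segments with more A02, A02 at 1.40 to 1.88 times the others stayed within it. C2 at 0.136 to 0.439 times passed it. Single A02 windows did pass it upward, 3 in Ab, 2 in Qu and 1 each in DH20 and Yu. How far the limit sets the larger number of C2 calls was not tested.

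Gene pairs were counted one by one. In DH20 windows 20 to 44, 160 of 199 A02/C2 pairs had the A02 gene above and the C2 gene below the median of the other 15 accessions, and 1 pair the reverse, with medians of 0.84 for A02 and -1.74 for C2 on the log2(CPM + 0.5) scale. The counts were 75 of 99 in DH20 windows 1 to 17, 60 of 71 in DH20 windows 46 to 54, 72 of 91 and 63 of 75 in the segments of Qu, 41 of 56 in Ab windows 1 to 11, 31 of 40 in DH12 windows 2 to 10, 25 of 37 in Yu windows 1 to 8, 16 of 18 in Ca and 17 of 18 in Ze windows 88 to 92, and 9 of 11 in Gr windows 65 and 66. They were lowest in Ab windows 20 and 21, at 10 of 17, and in Yu windows 27 and 28, at 12 of 19 with 1 pair reversed. In the segments with less A02 the order was turned: the A02 gene was below and the C2 gene above in 15 of 18 pairs of St windows 88 to 92, 17 of 25 of St windows 83 to 86, 16 of 20 of Se, 16 of 18 of Av, 15 of 18 of DH12 windows 18 and 19, and 11 of 15 of Ze windows 1 and 2. These are counts within windows that were called on the same libraries, and describe the segments without testing them.

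Single genes differed in how far they fell. Among the 667 C2 genes of DH20 windows 20 to 44 with a mean of at least 1 CPM in the other accessions, 536 were lower by 1 log2 unit or more, 10 were higher by 0.5 or more, and 157 were below 0.1 CPM in DH20. Of the 591 A02 genes, 380 were higher by 0.5 log2 or more. In St windows 88 to 92, 87 of 97 A02 genes were lower by 1 log2 unit or more, 19 were below 0.1 CPM, and 68 of 90 C2 genes were higher by 0.5 or more. These windows were called on the same counts, and no share of genes outside the segments is set beside them. The numbers describe the segments and are no test. Named below are genes of highest mean CPM in the other accessions, 3 on each side of a segment.

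On C2, Bo2g013150 was at 0 to 5.58 CPM in the 23 DH20 libraries (mean 0.721) and at 0.0892 to 2.86 in the 23 of Qu (mean 0.546), with a mean of 534 in the median accession. Bo2g013450, a near neighbor by number, kept 50.1 CPM in DH20 and 27.8 in Qu against 566 in the median accession. Within the later DH20 segment, Bo2g093380 was at 0 to 0.780 CPM (mean 0.231) against 118 to 174 as means of the other accessions, and Bo2g091100 at 1.38 against 121 to 331. Bo2g091100 was highest in Se, at 331 CPM, where the segment had less A02. Not all genes fell so far: Bo2g032430 was at 129 CPM in DH20 and 98.2 in Qu against 185 in the median accession, and Bo2g026820 was at 119 in Qu against 119 in the median accession.

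At the end of the chromosomes, Bo2g167610 had a mean of 2.89 CPM in Ca and 2.18 in Ze, against 180 in the median accession and 338 in St. Bo2g167690 was at 20.8 CPM in Ca, 45.8 in Ze and 605 in St. Their A02 neighbors were the other way: BraA02g46620R was at 11.1 CPM in St (1.73 to 73.7), 482 in Ca and 618 in Ze, with 312 in the median accession, and BraA02g45690R was at 18.5 CPM in St and 666 in Ca. In St windows 83 to 86, BraA02g42490R was at 0.185 to 40.9 CPM (median 0.872) against 117 as the mean of the others. The highest value of BraA02g46620R and of BraA02g42490R in St came from the library that stands apart (below), and the next highest were 27.0 and 4.24 CPM.

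In windows 1 and 2, BraA02g01210R had a mean of 0.471 CPM in Ze (0.0700 to 1.35) against 158 in the others. BraA02g01520R was at 70.1 CPM in Ze, 962 in Yu, 899 in DH12, 865 in DH20, 820 in Qu and 784 in Ab, with 418 as the median of accession means. On the C2 side, Bo2g002540 was at 532 CPM in Ze and 61.4 in its lowest accession. In windows 18 and 19, Bo2g022090 was at 117 CPM in Av and 131 in DH12 against 26.4 in the median accession. Bo2g023730 went the other way, at 0 to 0.143 CPM in Av, and in DH12 it had a median of 0 and 274 CPM in the library that matches Al. In Se windows 46 to 48, Bo2g083700 was at 530 CPM against 4.33 in the median accession, but the other accession means ran from 0.0176 to 247. Over all libraries it gave 41.0% of the C2 counts of window 46. Gr had 0 counts of Bo2g127490 in all 22 libraries, a gene whose accession means otherwise ran from 0.0648 to 360 CPM.

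Genes close to silent in a single accession were counted next. With silence set at a mean below 0.1 CPM in 1 accession and at least 1 CPM in each of the other 15, 102 of 1498 C2 genes (6.81%) and 45 of 1702 A02 genes (2.64%) qualified, beside 642 of 37837 (1.70%) on 19 chromosomes. DH20 accounted for 90 of the 102 C2 genes, and 89 of the 90 lay in its segments, in windows 25 to 54. Counts of these genes are part of the sums on which the segments were called. The place of silent genes in segments is therefore a description without a test. The most strongly expressed elsewhere were Bo2g069590 (0.0304 CPM in DH20, 58.9 in the others), Bo2g075220 (0.0593 and 52.2) and Bo2g032490 (0.0790 and 47.7). All 12 silent A02 genes of St, which were 36 without its library that stands apart, lay in its segments, led by BraA02g43370R (0.0960 and 18.7) and BraA02g46640R (0.0977 and 7.73). All 7 of Ze lay in windows 1 and 2, led by BraA02g01600R (0.0673 and 11.5), and all 3 of Gr on C2 lay in windows 65 and 66, led by Bo2g127570 (0.0830 and 9.28). In Se, 7 of 8 silent A02 genes lay in windows 46 to 48, led by BraA02g24000R (0.00212 and 16.0), and its 4 silent C2 genes, Bo2g113960 (0.0260 and 10.2) first, lay outside segments.

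Silent genes and segments did not always go together. Ab had 13 silent A02 and 2 silent C2 genes, none in its segments, among them BraA02g24770R (0.0577 CPM, 38.9 in the others), Bo2g137340 (0.0953 and 22.3) and BraA02g08610R (0.0492 and 20.2). Qu and DH12, with 25 and 11 windows in segments, had 0 silent genes on either chromosome, and so had Al, Av, Br, Da, Mu and Ne. Without the library labelled Al that matches DH12, Al had 1 silent A02 gene, and 104 in place of 10 on the 19 chromosomes. A gene low in 2 accessions cannot qualify under this rule, and windows 1 to 28 of C2 are low in several. Yu had 2 on each chromosome, led by BraA02g14060R (0.00472 and 14.4), and Ca had 1, BraA02g12480R (0.00446 and 1.92).

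Single libraries also left the balance of their own accession. In 18 libraries, the 2 that match another accession included, the balance left the accession's median by 1 of 2 rules. The rules were a median move over all windows of more than 0.25, or a move of more than 1 in 3 or more adjacent windows. By the median over all windows, 10 libraries differed on A02/C2, beside 24 on A01/C1 and 2 on A03/C3. Some of the 10 moved in only a part of the chromosome, as given below. The limits of the stretches below were set after the profiles were seen, and their values are descriptions without a test. The other 16 matched their own accession. Ab WL ZT1 replicate 3 had a median shift of 0.0260 in windows 1 to 28 and of 1.21 in windows 29 to 92, where 64 of 64 windows were raised and the other 21 Ab libraries lay between -0.0449 and 0.0227. Its C2 side was lower by 0.83 and its A02 side higher by 0.32, and its A02 share, 68.8%, was the highest of Ab.

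In DH20, 4 of 23 libraries moved in windows 55 to 92, beyond the end of its last segment. The shift was 1.197 in WL ZT1 replicate 1, 1.17 in WL ZT1 replicate 3 and 1.17 in WW ZT7 replicate 2, with 37 or 38 of 38 windows raised. WW ZT1 replicate 1 shifted by -1.21 over the same windows, with A02 lower by 0.81 and C2 higher by 0.41. Their windows 1 to 54 stayed within -0.0651 and 0.0749 of the accession. The 3 raised libraries had A02 shares of 75.7% to 77.4% and the lowered library 63.8%, the extremes of DH20.

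Shifts over the whole length were seen in Ne WW ZT1 replicate 2 (0.728) and Ne WW ZT13 replicate 1 (0.713), with C2 lower by 0.88 and 0.68 and A02 shares of 59.3% and 60.2%. Ca WW ZT1 replicate 2 (-0.405) and Da WW ZT7 replicate 2 (-0.419) shifted the other way, with C2 higher by 0.48 and 0.39. DH12 WW ZT1 replicate 1 shifted by -0.441 in windows 12 to 92. Da WL ZT7 replicate 3 was lower in windows 1 to 53 (-0.700, A02 lower by 0.80) and near its accession in windows 54 to 92 (0.0362). Se WL ZT13 replicate 1 was higher by 1.44 in windows 1 to 17, and by 0.350 in the rest. Yu WL ZT13 replicate 1 was lower by 1.35 in windows 9 to 17, just beyond the segment of Yu, and not in windows 18 to 92 (-0.00222). St WL ZT7 replicate 2, the only library of its group, was higher by 1.45 in windows 83 to 92, the windows of the St segments. Shorter runs were seen in Av WW ZT7 replicate 2 (windows 88 to 90, 1.36) and DH12 WW ZT7 replicate 3 (windows 89 to 92, -1.23).

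**Figure D4:**
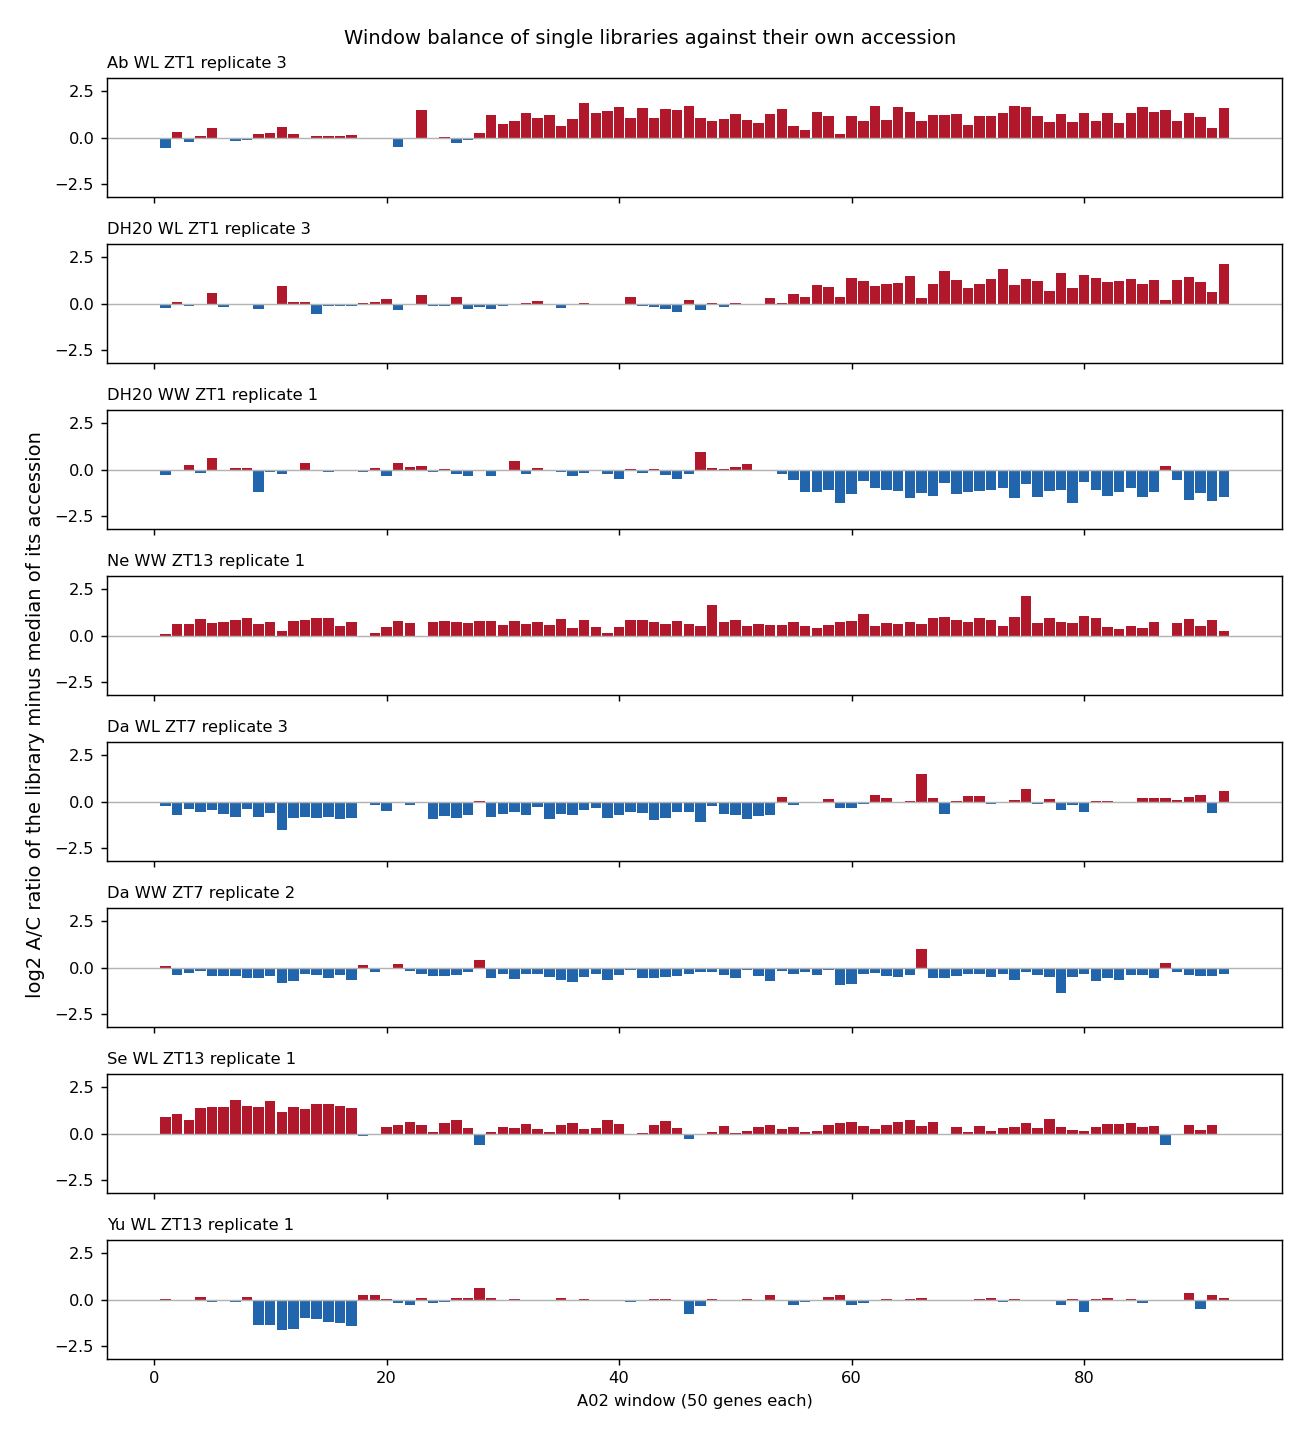
Balance of 8 single libraries minus the median of their own accession (y axis, log2) in the 92 windows (x axis, window number). Ab WL ZT1 replicate 3 steps from near 0 to 1.21 after window 28, 2 libraries of DH20 step to 1.17 and -1.21 after window 54, and Ne WW ZT13 replicate 1 is shifted by 0.713 along the whole length.

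Leaving out all libraries that stand apart changed the segments little. The segment values of Ab windows 1 to 11 became 3.03 ± 0.1995 (n = 21), of DH20 windows 20 to 44 2.42 ± 0.129 (n = 19), and of St windows 88 to 92 -3.90 ± 0.220 (n = 18, -4.16 to -3.43). The call of Ne in window 45 was lost (1.26, adjusted p = 0.0496, limma) and no other call was lost. Without these libraries 11 calls were gained, of which 6 had less A02 in windows 4 to 9 (Ca and Gr window 4, Al and Br window 7, Da window 8 and Se window 9, -1.27 to -1.10). Of the others, Ab window 68 had less A02 (-1.455), and DH12 windows 1 and 11, Qu window 1 and Ca window 45 had more (1.15 to 1.37).

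Within accessions, WL minus WW had a median size of 0.0890 over the 1472 accession-windows, and the difference of an accession from the others, over the same 1472 and without regard to calls, had one of 0.3105. Averaged over 16 accessions and 4 time points, WL minus WW ran from -0.320 to 0.420 over the 92 windows with a median size of 0.0421. With the smaller error of this average, 26 of 92 windows (28.3%) passed limma's test with the limit of 0.01 on the adjusted p, 14 with more A02 under WL and 12 with less; over the 3 chromosome pairs 27.0% were called. A02 shares of accessions differed between treatments by at most a few percentage points, with overlapping libraries. Examples are 57.1% ± 0.839 in WW and 58.9% ± 3.50 in WL for Ab, and 69.6% ± 3.11 and 70.7% ± 2.86 for DH20. The mean share was higher in WL in all accessions but Av (46.32% in WW, 46.31% in WL) and Ne (50.05% and 47.8%). The WW mean of Ne holds ZT1 replicate 2 and ZT13 replicate 1, which stand apart (below), and the medians of Ne were 47.8% and 48.0%. This direction was not tested.

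Single strongly expressed genes gave much of the counts in the windows of largest WL effect. Window 23 rose by 0.420 ± 0.0355 (SE, adjusted p = 4.05e-23, limma) and was up in 16 of 16 accessions, from 0.0310 in Qu to 0.866 in Ab. BraA02g12030R gave 51.1% of its A02 counts and went from 198 CPM in WW (33.3 to 421 as accession means) to 671 in WL (434 to 1413). On the C2 side Bo2g026820 rose as well, from 47.8 to 188 CPM, and gave 21.4% of the C2 counts. With the median over genes in place of the sum, the window was at -0.0398. Windows 92 (0.311 ± 0.0731) and 28 (0.227 ± 0.0396) rose too, with BraA02g46620R giving 55.7% and BraA02g14720R 60.5% of the A02 counts. Window 28 was at -0.0182 when only paired genes were counted.

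Window 55 fell most, by 0.320 (SE 0.0414, adjusted p = 3.23e-11, limma), and was down in all 16 accessions. Its A02 gene BraA02g28330R, with 19.6% of the counts, went from 98.5 CPM in WW to 28.6 in WL and was lower in all accessions, while Bo2g100540 was at 48.3 and 49.3. Window 21 fell by 0.180 (SE 0.0292), with BraA02g11060R at 144 CPM in WW and 74.0 in WL, and window 47 fell by 0.175 (SE 0.0382), with BraA02g24330R at 430 and 331. With the median over genes windows 55 and 21 were at 0.0305 and 0.0814, and with paired genes only window 47 was at 0.0177.

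**Figure D5:**
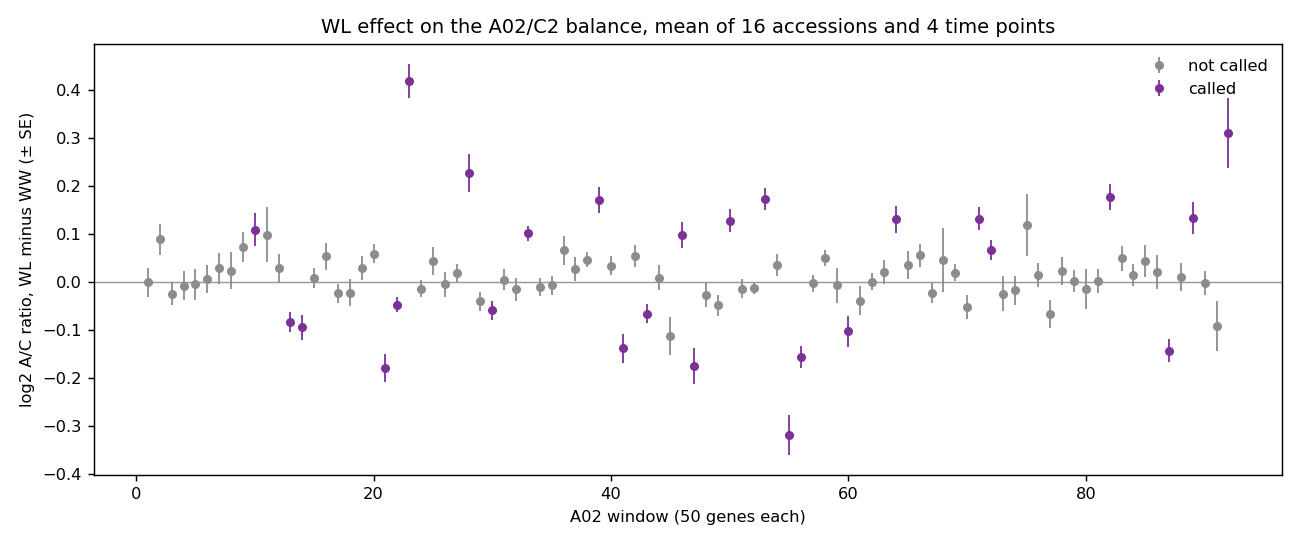
WL minus WW of the balance (y axis, log2, mean of 16 accessions ± SE) in the 92 windows (x axis, window number), with windows called by limma in purple. Effects lie between -0.320 in window 55 and 0.420 in window 23, and 26 windows were called.

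The WL effect differed between accessions in 6 of 92 windows (6.52%; F-test over 16 accessions in limma, adjusted p of 0.01 or less), beside 5.34% over the 3 chromosome pairs. Window 23 was 1 of them (adjusted p = 0.00216, limma), with the low values in Qu, St (0.0956) and DH20 (0.128) and the high in Ab and Mu (0.797). Window 85 ran from -0.380 in Mu to 0.432 in Se (adjusted p = 0.00216, limma). Both kept their calls without the libraries that stand apart (adjusted p = 0.00519 in each, limma). Windows 9, 27, 89 and 90 (adjusted p = 0.00522, 0.00867, 0.00655 and 0.00149, limma) did not, with adjusted p of 0.0644, 0.0533, 0.0673 and 0.0533. In window 9 the highest value was that of DH12, 0.551, which was 0.344 without the 2 libraries that match another accession. In windows 89 and 90 it was that of St, 0.591 and 0.497. By accession, 26 of 1472 tests were called (1.77%, limma), beside 1.53% over the 3 chromosome pairs, and window 23 gave 7 of these, in Ab, Br, Ca, Da, DH12, Gr and Mu.

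Time of day was tested in the same way. The balance differed between the 4 time points in 77 of 92 windows (83.7%; F-test in limma, adjusted p of 0.01 or less), beside 76.5% over the 3 chromosome pairs, with a median range of 0.186. The widest was window 11, from 1.12 at ZT1 to -0.197 at ZT7, where BraA02g06190R gave 53.8% of the A02 counts and had 635 CPM at ZT1 and 90.2 at ZT7. Window 28 ranged by 1.08, with BraA02g14720R at 1342 CPM at ZT7 and 340 at ZT19. Window 66 ranged by 1.05, with BraA02g33600R at 175 CPM at ZT7 and 1.17 at ZT1 and the C2 gene Bo2g131480 highest at ZT1 (74.2 CPM).

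Gene by gene, the number of WL calls and the accessions they came from depended on the tool and on single replicates. Within accessions, edgeR's quasi-likelihood test at an adjusted p of 0.01 or less gave 201 A02 calls (88 up, 113 down, in 169 genes) and 196 C2 calls (58 up, 138 down, in 167 genes); over all genes and accessions 0.453% of tests were called. DH12 alone gave 135 and 133 (67.2% and 67.9%), which were 156 and 163 without the 2 libraries that match another accession and 0 and 0 without replicate 1, where 440 and 461 genes had an unadjusted p under 0.05 (edgeR). With 2 plants or fewer per group left, DH12 gave 38 and 48 calls without replicate 2 and 13 and 14 without replicate 3. Without replicate 1 all calls on both chromosomes, 20 and 31, were in St, which had 3 and 2 with all replicates. Without replicate 2 Al had 4 and 20, in place of 0, and without replicate 3 Br had 118 and 134, in place of 27 and 31. Al, Ca, DH20, Ne, Qu, Se and Ze gave 0 calls on either chromosome in edgeR. In these 7 accessions 215 to 846 A02 and 222 to 888 C2 genes had an unadjusted p under 0.05 in edgeR, and DESeq2 called 9 to 248 and 8 to 284. Counts by unadjusted p, here and for DH12, have no share over all genes beside them. They do not set A02 and C2 apart from other genes. Over the 16 accessions DESeq2 gave 1397 A02 and 1479 C2 calls, beside 3.22% over all genes. DH12 held 264 and 271 of these (18.9% and 18.3%) and Ca 248 and 284.

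Of the genes that could be tested in each of the 16 accessions, those with calls by edgeR in the most are named next. On A02, BraA02g38550R was up in 16 of 16 accessions and called in 8, from a median accession mean of 0.490 CPM in WW to 5.15 in WL (mean log2 fold change 3.38). BraA02g43370R, called in 5 accessions, went from 2.74 to 16.3 CPM (2.76 over the 15 accessions with an estimate), and it is also listed above as close to silent in St. BraA02g12030R, the leading gene of window 23, was called in 3 accessions and up in all 16 (1.96). BraA02g05700R, called in 2, went from 0.846 to 7.30 CPM (3.36), and BraA02g27160R, also called in 2, from 215 to 364 CPM (0.82). In the other direction, BraA02g07690R was called in 4 accessions and lower in all 15 with an estimate (mean log2 fold change -3.53), from 5.97 CPM to 0.543. BraA02g17510R (called in 3, -1.15), BraA02g45170R (3, -0.75) and BraA02g10140R (2, -3.10) were lower in all 16, and BraA02g36200R (2, -3.70) in the 15 with an estimate. The fits of BraA02g43370R and BraA02g36200R in St and of BraA02g07690R in Ne gave standard errors above 100, and these values are left out.

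On C2, the gene called in the most accessions was Bo2g140520, tested in 15, called in 6 and up in each of these (log2 fold change 1.87 to 4.45). Among the genes tested in all 16, Bo2g026820 was called in 4 accessions and up in all 16 (mean log2 fold change 2.14), from 43.9 to 179 CPM in the median accession. It lies in window 23 with BraA02g12030R, so both sides of that window rose under WL. Bo2g061150 was called in 2 accessions (0.66), and Bo2g118210, Bo2g061130 and Bo2g047970 in 1 each (1.45, 1.26 and 1.04). Downward calls were led by Bo2g080870 (called in 3, mean log2 fold change -1.48), Bo2g116470 (3, -1.07) and Bo2g165880 (3, -0.75), then Bo2g016510 (2, -2.002) and Bo2g144870 (2, -1.49). Bo2g165880 and BraA02g45170R both lie in window 89, were lower under WL in all 16 accessions and were called in Br, DH12 and Mu.

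A list of 35 genes on these chromosomes (27 on A02, 8 on C2) carries the study's own annotation to carbohydrate metabolism, autophagy, biotic stress or abiotic stress. The study chose it on these samples and it is held only in part, so it is no independent evidence. Of the 35, 1 was called for WL in any accession: BraA02g43070R, annotated to the defence response to other organisms. Of all genes tested, 5.38% were called in any accession, and of those on A02 and C2 5.32%. BraA02g43070R fell in DH12 (log2 fold change -2.08, SE 0.365, adjusted p = 0.0018, edgeR), where it was at -2.16 without the 2 libraries. It was lower under WL in 16 of 16 accessions, from a median of 59.5 CPM to 28.1, and lowest in St, at 4.49 CPM, within the St segment.

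Of the 35 listed genes 20 lie in segments, which gives 45 combinations of a gene with the accession of a segment. In 41 of them the gene lay on the same side of the median of the other 15 accessions as its chromosome in that segment, a description within windows called on the same libraries. In the other 4 it did not: Bo2g010580 was at 28.0 CPM in DH12 against 20.9, BraA02g07130R at 4.395 in DH20 against 4.63, BraA02g01880R at 4.32 in Ze against 4.16, and BraA02g42160R at 10.5 in St against 9.60. Bo2g017800, annotated to starch metabolism, was at 6.93 CPM in DH20 and 6.38 in Qu, against a median of 29.5 over accessions, and BraA02g09010R, with the same annotation on A02, was highest in DH20, at 37.6 against 18.8. Bo2g024930, annotated to the regulation of systemic acquired resistance, was at 6.95 CPM in Ab, 8.74 in DH20, 8.23 in Da and 7.56 in Qu, the 4 accessions with more A02 in window 21, and at 39.8 to 48.9 in the other 12. BraA02g11320R, with the same annotation on A02, was highest in DH20, at 69.7 CPM against a median of 34.3. BraA02g14110R, annotated to the defence response to other organisms, was at 66.8 CPM in Qu against 18.3.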

How the data were processed

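RNA from leaf tips of 16 B. napus accessions was sequenced (1 library of Br WW ZT13 was not analysed here). The values used are estimated counts per gene, deposited by the authors. Reads were trimmed with Trimmomatic (0.33), aligned with HISAT2 (2.1.0) to a joined reference (R500 of B. rapa with TO1000 of B. oleracea), and counted by strand with featureCounts, which gave a read with several alignments a fraction of a count at each. Such reads can draw the A02 and C2 counts of a window toward each other. Tables of log2 FPKM values were not used.

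Genes were ordered by identifier. Each window of 50 A02 genes (28 in the last) was placed on C2 through reciprocal best-correlated genes (r of at least 0.7). The balance was log2((A02 + 0.5)/(C2 + 0.5)) of summed counts. Group means were fitted with limma (3.58.1). Each accession was compared with the mean of the other 15 by treat with a limit of 1 log2 unit, and the effects of WL and time by moderated t- and F-statistics. The threshold was a Benjamini-Hochberg adjusted p of 0.01. Genes were tested for WL within accessions with edgeR (4.0.16) on counts rounded to whole numbers, after its low-count filter. CPM values of genes were scaled with TMM factors. Those of the silent genes and the mean of at least 1 CPM over all libraries were scaled by total counts only. The code was tested on simulated data.

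Genes are named by rule: the 3 of highest mean CPM in the other accessions on each side of a segment, the largest window of each accession, the 3 highest and 3 lowest called WL windows, for genes with a WL test in each of the 16 accessions, the 5 per chromosome and direction with most calls, 3 silent genes per accession, and listed genes called in an accession. Other genes were named after their values were seen. Members and lists were chosen with earlier results of these data known. Alternatives were window size, placement by relative position, paired genes only, the median over genes, a CPM minimum, normalization, DESeq2 (1.42.0), a replicate block and leaving out each replicate. Chosen after seeing the data were leaving out the 2 libraries that match another accession, leaving out all libraries that stand apart, and the median of the other 15 as baseline.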

Additional observations from a re-analysis of the deposited data

Results flagged for a closer look

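The A02 share of A02 plus C2 counts was examined for single libraries far from the rest of their accession and treatment, in the 9 groups of 10 or fewer libraries. Groups of 11 or 12, among them both of DH20, were not examined. Chance alone marks about 1 in 20 examined groups. Ab WL ZT1 replicate 3 stood above the rest of Ab at 68.8%. Al WL ZT19 replicate 3, the library that matches DH12, was at 50.2%, and Da WL ZT7 replicate 3 stood below the other WL libraries of Da at 41.6%, while Da WW ZT7 replicate 2 was at 40.8%. The WL effect on the balance differed between accessions by limma's F-test in window 9 (adjusted p = 0.00522), window 23 (adjusted p = 0.00216), window 27 (adjusted p = 0.00867), window 85 (adjusted p = 0.00216), window 89 (adjusted p = 0.00655) and window 90 (adjusted p = 0.00149). Of these, windows 9, 27, 89 and 90 were not called without the libraries that stand apart (adjusted p = 0.0644, 0.0533, 0.0673 and 0.0533, limma).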

How the results depend on the processing

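All 19 segments kept their direction under every alternative that could be fitted. Of 244 segment values 2 lost their call, both with windows placed by relative position on C2. This count is of whole segments, and a segment can keep its call while some of its windows lose theirs. Values against the median of the other accessions as baseline had no test and were judged on direction only. Those values could not lose a call. The other percentages below are of A02/C2 tests called, by limma. The share of windows called for WL, 28.3%, was 54.4% with relative position, 8.70% with the median over genes, and 17.4% to 26.1% without a replicate. The share called for a difference between accessions, 6.52%, was 1.09% with relative position, 12.05% with paired genes only, 2.17% with the median over genes, 3.26% without the libraries that stand apart, and 0% to 4.35% without a replicate. The share of accession-windows called for WL, 1.77%, was 2.85% in windows of 100 genes, 2.79% with paired genes only, 0.408% with the median over genes, and 0.747% to 3.13% without a replicate. WL minus WW changed sign with paired genes only in windows 47 (0.0177) and 28 (-0.0182), and with the median over genes in windows 55 (0.0305), 21 (0.0814) and 23 (-0.0398). WL gene calls, 201 on A02 and 196 on C2 in edgeR, were 1397 and 1479 in DESeq2, and 20 to 132 and 31 to 149 without a replicate. Silent genes, 45 on A02 and 102 on C2, were 108 and 186 with CPM limits of 0.5 and 1, 5 and 26 with limits of 0.1 and 5, and 42 to 70 and 99 to 111 without a replicate, and A02 had 70 without the libraries that stand apart. The cause of these changes was not tested.

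Replicate numbers were not taken to pair the samples: of 1121 pairs of libraries with the same number, 374 had deviations correlated above 0.1, and in 0 of 16 accessions all were. The mean correlation of same-number pairs ran from -0.0583 to 0.0992 by accession. It was highest in Ab (0.0992, against -0.0393 in other pairs) and Da (0.0553, against -0.0211). These values cannot exclude a pairing in single accessions. With the replicate block, 11.3% of accession-windows and 28.3% of WL windows were called, and WL gene calls were 137 on A02 and 135 on C2.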
